A study of Xenopus laevis with 14 samples.

Results

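The genes described here make the machinery that copies the genome and then parts the copies at cell division. They were taken from the count table of whole tadpole brains by symbol alone, under a rule chosen with earlier results of these data known. It took rows whose symbol, without its .L or .S ending, named a subunit of the origin recognition complex, the MCM proteins or GINS. It also took those of a cyclin A, B or E, a Bub or Cenp protein, or Aurora kinase A or B. The remaining symbols were *pcna*, *mki67*, *top2a*, *cdk1*, *cdk2*, *cdc6*, *cdc20*, *cdc45*, *cdt1*, *plk1*, *rrm1*, *rrm2* and *tyms*. This gave 92 of the 26807 rows. *Xenopus laevis* carries a duplicated genome, in which the copies of a gene are marked .L and .S, and the 92 rows held 62 gene names, 30 of them with both copies, 29 with the .L copy only and 3 with the .S copy only. The question asked of them was whether the transcripts of proliferation differed between the 3 conditions.

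A cell prepares to copy its DNA in G1 phase, when the origin recognition complex, Cdc6 and Cdt1 load the MCM helicase onto origins. Cyclin E with Cdk2 then starts S phase, Cdc45 and GINS join the helicase to make it active, and the clamp Pcna holds the polymerases on the template while ribonucleotide reductase and thymidylate synthase supply nucleotides. Cyclin A and cyclin B with Cdk1 carry the cell into mitosis, where Plk1 and the Aurora kinases build the spindle, the Bub proteins hold back separation until chromosomes are attached, and the Cenp proteins make the centromere and the kinetochore on which spindle fibres pull. In the tadpole brain, which keeps growing through larval life, dividing cells lie mostly along the ventricles, and transcripts such as *pcna*, *mki67* and *top2a* are commonly used to mark them.

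RNA was sequenced from whole brains of NF stage 47 tadpoles in 14 libraries, each a pool of 6 brains. The embryos came from wild-type stock and all of them received Cas9 protein with a guide RNA by injection after fertilisation. Of the libraries, 4 were from *ap3b2* CRISPants (mosaic F0 animals edited at *ap3b2*, which encodes a subunit of the neuronal AP-3 adaptor complex; the guide cuts the .S copy), 5 were from *eef1a2* CRISPants (mosaic F0 animals edited at *eef1a2*, a translation elongation factor) and 5 were from controls given a scrambled guide, which leaves the genome unedited. CRISPant brains are a mixture of edited and unedited cells, and both CRISPant groups are compared with the same control libraries. The paper calls the controls siblings of the *ap3b2* CRISPants, and nothing in the labels says which pools share parents. Pools may share parents, so p-values measure the spread between these pools and not between families.

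Libraries held 36563581 to 46745977 read pairs assigned to genes, and levels are given as CPM, the count scaled to the size of its library, after TMM scaling. The targeted genes did not separate the groups: *ap3b2.S* stood at 61.9, 66.6, 65.9 and 80.2 CPM in *ap3b2* CRISPants, against 70.2 to 74.8 CPM in controls, and neither copy of *eef1a2* passed the test in *eef1a2* CRISPants. Read counts per gene do not show whether a transcript was edited. The other copy, *ap3b2.L*, was lower in both CRISPant groups, with log2 fold changes of -0.57 (SE 0.13, adjusted p = 0.00691) in *ap3b2* CRISPants and -0.58 (SE 0.15, adjusted p = 0.0119) in *eef1a2* CRISPants. Markers of neurons fixed as a list (30 rows, among them *elavl3*, *tubb3* and *snap25*) summed to 10910 to 11650 CPM in *ap3b2* CRISPants, 10890 to 12080 CPM in *eef1a2* CRISPants and 10680 to 11530 CPM in controls, so neuronal transcripts were abundant in every library.

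Part of the transcripts of DNA replication and mitosis were modestly higher in *ap3b2* CRISPant brains in the main fit, by an amount that moved with the processing. A row was tested if it was above 1 CPM in enough libraries (fewer than 4 of those compared at or below 1), and 80 of the 92 members were tested against controls. Of these, 25 were higher in *ap3b2* CRISPants at an adjusted p below 0.05 (31.2%), where 20.0% of all rows tested were higher, and 3 were lower (3.75%), where 22.8% of all rows were lower. None of the members passed that threshold with a change above 2-fold (of all rows, 5.11% were lower and 0.0769% higher by this rule). At an unadjusted p below 0.05 by edgeR's quasi-likelihood test, 34 were higher and 3 lower (42.5% and 3.75%, where 25.4% and 26.2% of all rows were). The log2 fold changes of the members ran between -0.77 and 0.70 with a median of 0.26 (median standard error 0.14), beside a median of 0.03 over all rows, and 69 of the 80 were positive (86.2%, against 53.6% of all rows). With the replicate number added to the fit, 12 of 80 were higher, where 11.7% of all rows were. When each library's trend with gene span was removed as well, 5 of 80 were higher, a smaller share than the 11.8% of all rows. The median log2 fold change of the members was 0.21 with the replicate number and 0.18 with the span trend removed. With both it was 0.13. The medians over all rows in these fits were 0.026, 0.025 and 0.022.

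Fewer members passed in *eef1a2* CRISPant brains. Here 12 of 80 members were higher (15%, where 18.8% of all rows were higher) and 3 were lower (3.75%, where 21.4% of all rows were lower), so that the share of members that rose lay near that of the whole table and the share that fell lay below it. The median log2 fold change was 0.08, beside 0.03 over all rows, with a range of -0.83 to 0.53, and 50 of 80 members were positive (62.5%, against 53.4% of all rows). With the span trend removed the median of the members was 0.0034, beside 0.020 over all rows. With library sizes alone in place of TMM scaling, 4 were higher and 5 lower, where 11.2% of all rows were higher and 24.6% lower. Again no member passed with a change above 2-fold (5.24% of all rows were lower and 0.0870% higher by that rule). At an unadjusted p below 0.05, 18 were higher and 7 lower (22.5% and 8.75%, where 24.5% and 25.4% of all rows were). All adjusted p-values here are from edgeR's quasi-likelihood test with Benjamini-Hochberg adjustment over every row tested.

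Summed over all members, the level was 1112 ± 95.0 CPM in *ap3b2* CRISPants (n = 4), 1014 ± 88.4 CPM in *eef1a2* CRISPants (n = 5) and 962 ± 45.2 CPM in controls (n = 5; mean ± SD). By library these sums were 1217, 1167, 1025 and 1039 in *ap3b2* CRISPants, 986, 892, 1049, 1133 and 1009 in *eef1a2* CRISPants and 1016, 986, 931, 976 and 903 in controls. With TMM scaling the 4 *ap3b2* libraries lay above all 5 controls, while *eef1a2* libraries were spread on both sides of the highest control. The margin was narrow, at 1025 against 1016 CPM, and rested on that scaling. By library size alone, *ap3b2* replicate 3 lay below control replicate 1, so the groups overlapped. Replicates 1 and 2 of *ap3b2* were the highest of the 14 libraries, and replicates 3 and 4 lay within the *eef1a2* range. RNA from a whole brain cannot tell a larger number of dividing cells from more RNA of these genes per cell.

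**Figure D1:**
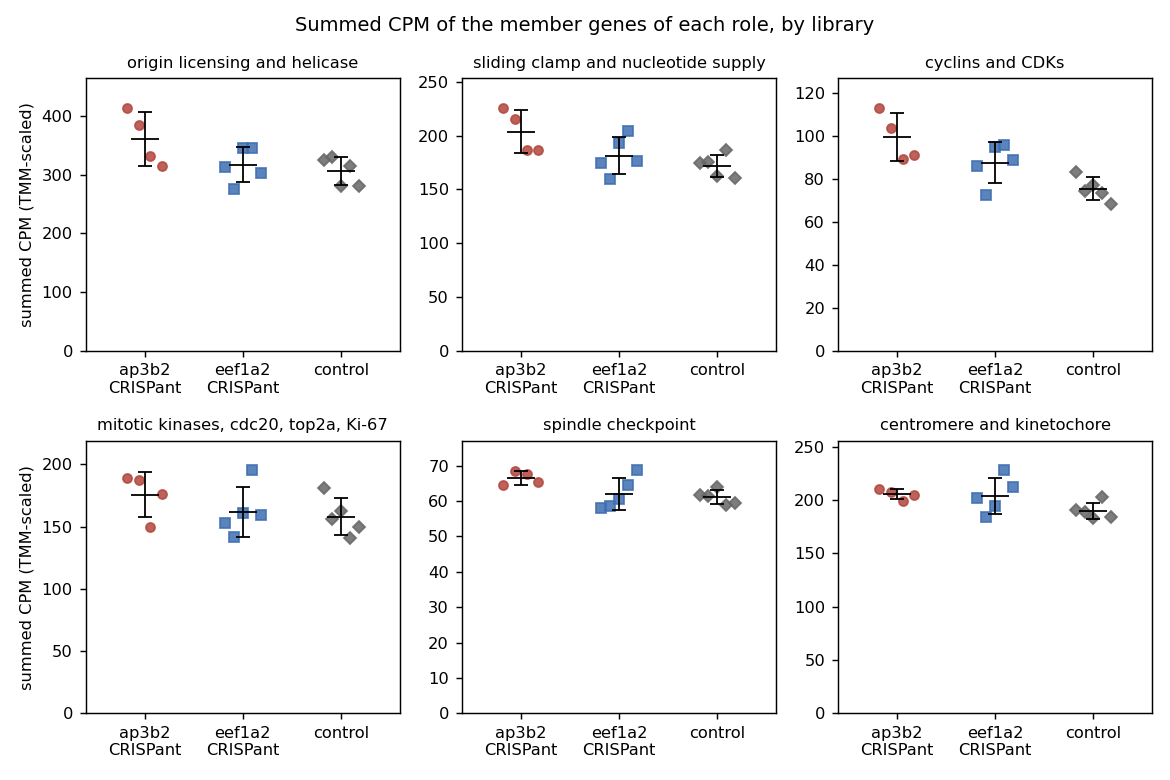
Summed TMM-scaled CPM (vertical axes, from 0) of the member genes of each of 6 roles, with a point for every library, a long bar at the group mean and error bars of 1 SD. The cyclin and CDK sums of the 4 *ap3b2* CRISPant libraries (89.5 to 113 CPM) all lie above the highest control (83.2 CPM), and in the other roles the groups sit closer or overlap.

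In *ap3b2* CRISPants, genes for origin licensing and the replicative helicase (31 rows, 28 tested) were called higher in a share near that of the whole table. There 7 were higher (25%, where 20.0% of all rows were). None was lower, against 22.8% of all rows, and the median log2 fold change was 0.24. The rises were in GINS subunits, the licensing factor Cdt1, Mcm8 and Orc2. In *eef1a2* CRISPants 3 were higher (10.7%, where 18.8% of all rows were) and none lower (21.4% of all rows), with a median of 0.01. Summed CPM was 361 ± 46.4 in *ap3b2* CRISPants, 317 ± 29.7 in *eef1a2* CRISPants and 306 ± 23.6 in controls, and the lowest *ap3b2* library (314 CPM) lay inside the control range of 281 to 329.5 CPM.

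The clearest of these was *gins4.L* (chromosome 3L, positions 139394853 to 139407773, in the v10.1 assembly), a subunit of the GINS complex that completes the active helicase. Its level was 13.9, 13, 12.496 and 10.12 CPM in *ap3b2* CRISPants, 11.2, 9.07, 12.7, 11 and 8.95 CPM in *eef1a2* CRISPants and 7.62, 8.77, 8.04, 9.21 and 7.56 CPM in controls. Every *ap3b2* library was above every control, and every *eef1a2* library was above 4 of the 5 controls, with replicates 2 and 5 just below the highest. The log2 fold change was 0.58 (SE 0.11, adjusted p = 0.00355) in *ap3b2* CRISPants and 0.35 (SE 0.11, adjusted p = 0.0298) in *eef1a2* CRISPants.

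*gins1.S*, another GINS subunit and the largest rise among the members in *ap3b2* CRISPants, had 4.13, 3.54, 2.24 and 2.72 CPM there, 2.51, 1.98, 2.93, 2.84 and 2.6 CPM in *eef1a2* CRISPants and 1.58, 2.02, 1.97, 2.42 and 1.71 CPM in controls. Replicates 1 and 2 of *ap3b2* were the highest of all libraries and replicate 3 was below the highest control. Its log2 fold change was 0.70 (SE 0.20, adjusted p = 0.0172) in *ap3b2* CRISPants and 0.39 (SE 0.16, adjusted p = 0.0634) in *eef1a2* CRISPants. The call in *ap3b2* CRISPants was lost without *ap3b2* replicate 1 (adjusted p = 0.0639) or replicate 2 (adjusted p = 0.0554), within a range of 0.00723 to 0.135 over 20 alternatives. In all, it was lost in 4 of the 20.

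*cdt1.S*, which encodes the factor that brings the MCM helicase to origins, was higher in both comparisons. It had 27.8, 26.4, 26.1 and 17.5 CPM in *ap3b2* CRISPants, 25.2, 21.6, 34.2, 19.2 and 24 CPM in *eef1a2* CRISPants and 19.2, 15, 15.3, 19.3 and 16.3 CPM in controls. Replicate 4 of *ap3b2* was well below the other 3 and inside the control range, as was replicate 4 of *eef1a2*. Against controls, the log2 fold change was 0.52 (SE 0.14, adjusted p = 0.0116) for *ap3b2* and 0.53 (SE 0.14, adjusted p = 0.0143) for *eef1a2*. Its homeolog *cdt1.L* rose in *ap3b2* CRISPants, at 0.47 (SE 0.14, adjusted p = 0.0182), and had 0.12 (SE 0.10, adjusted p = 0.357) in *eef1a2* CRISPants.

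Other members of this role that rose in *ap3b2* CRISPants were *mcm8.L* at 0.52 (SE 0.13, adjusted p = 0.00850), *gins2.L* at 0.49 (SE 0.16, adjusted p = 0.0291) and *orc2.S* at 0.42 (SE 0.13, adjusted p = 0.0204). Mcm8 is known for DNA repair by homologous recombination rather than for the main helicase, and Orc2 is a subunit of the origin recognition complex. In *eef1a2* CRISPants *orc2.S* rose as well, at 0.35 (SE 0.12, adjusted p = 0.0409), while *mcm8.L* and *gins2.L* had log2 fold changes of 0.24 (SE 0.10, adjusted p = 0.0719) and 0.53 (SE 0.20, adjusted p = 0.0516).

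The remaining GINS gene, *gins3.L*, did not pass, at 0.39 (SE 0.15, adjusted p = 0.0536) for *ap3b2*. Of the 11 rows of Mcm2 to Mcm7, the 6 subunits of the main helicase, 10 were tested, and none passed in either comparison with controls by edgeR; the log2 fold changes were between 0.00 and 0.39 in *ap3b2* CRISPants (smallest adjusted p = 0.0600) and between -0.27 and 0.14 in *eef1a2* CRISPants (smallest adjusted p = 0.0770). This subset was chosen after its values were seen. *mcm7.L*, the member of this role with the highest mean CPM, had 56.3, 54.5, 49 and 51.4 CPM in *ap3b2* CRISPants, 47, 42.5, 41.9, 53.2 and 39 CPM in *eef1a2* CRISPants and 53.4, 56.4, 44.3, 48.9 and 45.8 CPM in controls, and the 3 groups overlapped. *mcm2.L* stood at 22.8, 21.2, 15.7 and 16.5 CPM in *ap3b2* CRISPants, 15.4, 14.1, 15.4, 17.3 and 14.2 CPM in *eef1a2* CRISPants and 18.6, 22.3, 17.1, 17.8 and 14.8 CPM in controls, and here too the groups overlapped. The fitted log2 fold change was 0.066 (SE 0.14, adjusted p = 0.723) for *ap3b2* and -0.26 (SE 0.11, adjusted p = 0.0770) for *eef1a2*, and the values for *mcm2.S* were 0.0011 (SE 0.09, adjusted p = 0.993) and -0.059 (SE 0.10, adjusted p = 0.662) in the same order.

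Of the clamp and nucleotide supply genes (6 rows, 5 tested against controls), both copies of *pcna* rose in *ap3b2* CRISPants and *pcna.L* rose in *eef1a2* CRISPants. *pcna.L* (chromosome 3L, positions 130464147 to 130469121) had 71.4, 66.1, 60.4 and 56.9 CPM in *ap3b2* CRISPants, 54.1, 50.7, 62.3, 64.3 and 57.7 CPM in *eef1a2* CRISPants and 48.6, 49.4, 48.9, 53.9 and 44 CPM in controls. Each *ap3b2* library was above the highest control, and 4 of 5 *eef1a2* libraries were. On the log2 scale the fold change was 0.37 (SE 0.08, adjusted p = 0.00445) in *ap3b2* CRISPants and 0.23 (SE 0.08, adjusted p = 0.0353) in *eef1a2* CRISPants.

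*pcna.S* stood at 51.5, 46.2, 39.1 and 37.9 CPM in *ap3b2* CRISPants, 36.1, 30.03, 41.8, 46.4 and 42.4 CPM in *eef1a2* CRISPants and 35.8, 33, 30.5, 38.2 and 29.7 CPM in controls, where the 2 lowest *ap3b2* libraries were close to the highest control and 1 of them was just below it. The log2 fold change was 0.38 (SE 0.11, adjusted p = 0.0143) for *ap3b2* and 0.22 (SE 0.12, adjusted p = 0.140) for *eef1a2*. In *ap3b2* CRISPants the *pcna* calls did not hold in every setting, being lost in 2 (*pcna.L*) and 3 (*pcna.S*) of 20 alternatives. Why they were lost was not tested. From start to end *pcna.L* spans 4975 bases and *pcna.S* 5461 bases. The members had a median span from start to end of 13093 bases, beside 21726 bases over all rows with a position, and when the trend of each library with span was removed the adjusted p for *ap3b2* CRISPants became 0.0592 for *pcna.L* and 0.140 for *pcna.S* (ranges over 20 alternatives, 0.000215 to 0.133 and 0.00318 to 0.178). In *eef1a2* CRISPants the *pcna.L* call was lost without control replicate 1, 2, 3 or 5 or *eef1a2* replicate 3, 4 or 5 (adjusted p of 0.0580 to 0.0764), within a range of 0.00907 to 0.669 over 22 alternatives. In all, that call was lost in 12 of the 22, of which 7 were fits without a library.

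The large subunit of ribonucleotide reductase and thymidylate synthase did not pass the test, and the small subunit row taken by the rule was not tested against controls. In *ap3b2* CRISPants the log2 fold changes were -0.074 (SE 0.08, adjusted p = 0.483) for *rrm1.L*, 0.22 (SE 0.10, adjusted p = 0.0933) for *rrm1.S* and 0.42 (SE 0.18, adjusted p = 0.0818) for *tyms.L*. In *eef1a2* CRISPants they were -0.21 (SE 0.09, adjusted p = 0.0846), -0.0026 (SE 0.09, adjusted p = 0.985) and 0.0084 (SE 0.14, adjusted p = 0.966). The only row of the small subunit that the rule took, *rrm2.L*, reached at most 1.85 CPM in any library and was tested in no comparison with controls; a related row outside the rule, *rrm2.2.L*, had 16.5, 16.2, 15.2 and 8.86 CPM in *ap3b2* CRISPants and 8.03 to 12.61 CPM in controls, and its log2 fold change was 0.50 (SE 0.19, adjusted p = 0.0552).

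Cyclins and cyclin-dependent kinases (18 rows, 14 tested) held 7 of the 25 rises in *ap3b2* CRISPants. There 50% of the 14 were higher (20.0% of all rows), all 14 had a positive log2 fold change (53.6% of all rows) and the median was 0.40. In *eef1a2* CRISPants 4 of 14 were higher (28.6%, where 18.8% of all rows were) and the median was 0.10. The summed level was 113, 104, 89.5 and 91.4 CPM in *ap3b2* CRISPants, 86.1, 72.5, 95, 96 and 88.8 CPM in *eef1a2* CRISPants and 83.2, 74.6, 77.4, 73.7 and 68.4 CPM in controls, which made the *ap3b2* mean 1.32 times and the *eef1a2* mean 1.16 times that of controls. All *ap3b2* libraries and 4 of 5 *eef1a2* libraries lay above the highest control, and *eef1a2* replicate 2 lay inside the control range.

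Both copies of *ccne1*, the cyclin E that starts S phase, rose in both comparisons. *ccne1.L* (chromosome 4L, positions 65327378 to 65338051) had 11.6, 10.7, 10.6 and 8.38 CPM in *ap3b2* CRISPants, 10.11, 7.72, 12, 7.7 and 9.95 CPM in *eef1a2* CRISPants and 7.56, 6.23, 7.59, 5.65 and 6.65 CPM in controls, with no CRISPant library as low as the highest control. Its log2 fold change was 0.61 (SE 0.13, adjusted p = 0.00461) for *ap3b2* and 0.48 (SE 0.14, adjusted p = 0.0200) for *eef1a2*. *ccne1.S* had 10.3, 9.74, 9.95 and 7.61 CPM in *ap3b2* CRISPants, 10.2, 7.55, 10.6, 7.72 and 9.93 CPM in *eef1a2* CRISPants and 7.26, 5.94, 7.54, 6.34 and 6.65 CPM in controls. Again each CRISPant library was above each control, with the lowest of each CRISPant group close to the highest control, and the log2 fold change was 0.47 (SE 0.12, adjusted p = 0.0101) for *ap3b2* and 0.43 (SE 0.12, adjusted p = 0.0173) for *eef1a2*. The other cyclin E gene, *ccne2*, had log2 fold changes of 0.33 (SE 0.15, adjusted p = 0.0998) for its .L copy and 0.29 (SE 0.26, adjusted p = 0.387) for its .S copy in *ap3b2* CRISPants.

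Among B-type cyclins, which drive mitosis, *ccnb3.L* (chromosome 8L, positions 27321730 to 27333378) separated the controls from both CRISPant groups. It had 10.07, 9.53, 7.38 and 10.2 CPM in *ap3b2* CRISPants, 9.07, 7.76, 9.62, 9.04 and 9.04 CPM in *eef1a2* CRISPants and 6.38, 6.23, 6.4, 6.55 and 6.82 CPM in controls, and the 5 controls were within 1 CPM of each other. Against controls, the log2 fold change was 0.51 (SE 0.11, adjusted p = 0.00513) for *ap3b2* and 0.45 (SE 0.09, adjusted p = 0.00780) for *eef1a2*. Its copy *ccnb3.S* rose in *ap3b2* CRISPants, at 0.46 (SE 0.13, adjusted p = 0.0135), and had 0.19 (SE 0.15, adjusted p = 0.328) in *eef1a2* CRISPants.

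*ccnb2.S* was low throughout, at 1.73, 1.68, 2.12 and 1.18 CPM in *ap3b2* CRISPants, 1.17, 1.55, 1.72, 1.7 and 1.41 CPM in *eef1a2* CRISPants and 1.2, 1.24, 1.06, 0.927 and 0.864 CPM in controls. The lowest library of each CRISPant group lay inside the control range. It passed in both comparisons, at 0.66 (SE 0.20, adjusted p = 0.0223) in *ap3b2* CRISPants and 0.50 (SE 0.16, adjusted p = 0.0310) in *eef1a2* CRISPants. Neither call was firm: the adjusted p was 0.0511 to 0.0733 for *ap3b2* without control replicate 5 or *ap3b2* replicate 1, 2 or 3 (0.00374 to 0.158 over 20 alternatives), and 0.0508 to 0.0735 for *eef1a2* without control replicate 3, 4 or 5 or *eef1a2* replicate 3, 4 or 5 (0.0270 to 0.241 over 22 alternatives). In all, the *ccnb2.S* call was lost in 7 of 20 for *ap3b2* and 12 of 22 for *eef1a2*, of which 4 and 6 were fits without a library. *ccnb2.L* rose in *ap3b2* CRISPants, at 0.51 (SE 0.19, adjusted p = 0.0462), and had 0.077 (SE 0.17, adjusted p = 0.742) in *eef1a2* CRISPants.

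Counts for the rows *ccnb1.L* and *ccnb1.S* were at or near 0, with 6 and 35 read pairs in all 14 libraries together, where a library's count of 0 allows up to 3 counts or 0.0623 to 0.0839 CPM. Cyclin B1 reads lay instead on *ccnb1.2.L* and *ccnb1.2.S*, which the rule did not take. *ccnb1.2.L* had 6.37, 6.23, 5.23 and 8.28 CPM in *ap3b2* CRISPants, 4.91, 4.48, 4.95, 8.81 and 5.22 CPM in *eef1a2* CRISPants and 5.92, 6.45, 4.97, 6.45 and 6.76 CPM in controls, and the groups overlapped. In the same way *mcm3.L* held 9 read pairs in all, while *zmcm3.L*, the zygotic form of the same subunit, had 19.96, 18.5, 14.7 and 16.2 CPM in *ap3b2* CRISPants and 20.4, 21.9, 15.7, 14.2 and 12.52 CPM in controls, and its log2 fold change was 0.026 (SE 0.17, adjusted p = 0.910).

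*cdk1.L*, the kinase that cyclin B activates at mitosis, rose in *ap3b2* CRISPants. Its level was 12.6, 12, 9.95 and 11.3 CPM there, 8.85, 7.43, 7.85, 11.5 and 9.38 CPM in *eef1a2* CRISPants and 9.03, 8.64, 8.62, 9.06 and 7.36 CPM in controls. Each *ap3b2* library was above the controls, whereas 4 of 5 *eef1a2* libraries were within or close to the control range and replicate 4 was high. On the log2 scale the fold change was 0.42 (SE 0.10, adjusted p = 0.00874) for *ap3b2* and 0.065 (SE 0.13, adjusted p = 0.706) for *eef1a2*, and *cdk1.S* had 0.12 (SE 0.14, adjusted p = 0.486) and 0.11 (SE 0.14, adjusted p = 0.547) for the same comparisons. Cyclin A, which acts in S phase and at entry into mitosis, did not pass, with log2 fold changes in *ap3b2* CRISPants of 0.21 (SE 0.11, adjusted p = 0.145) for *ccna2.L* and 0.35 (SE 0.15, adjusted p = 0.0732) for *ccna2.S*, and in *eef1a2* CRISPants of 0.023 (SE 0.15, adjusted p = 0.915) and -0.0048 (SE 0.20, adjusted p = 0.987).

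**Figure D2:**
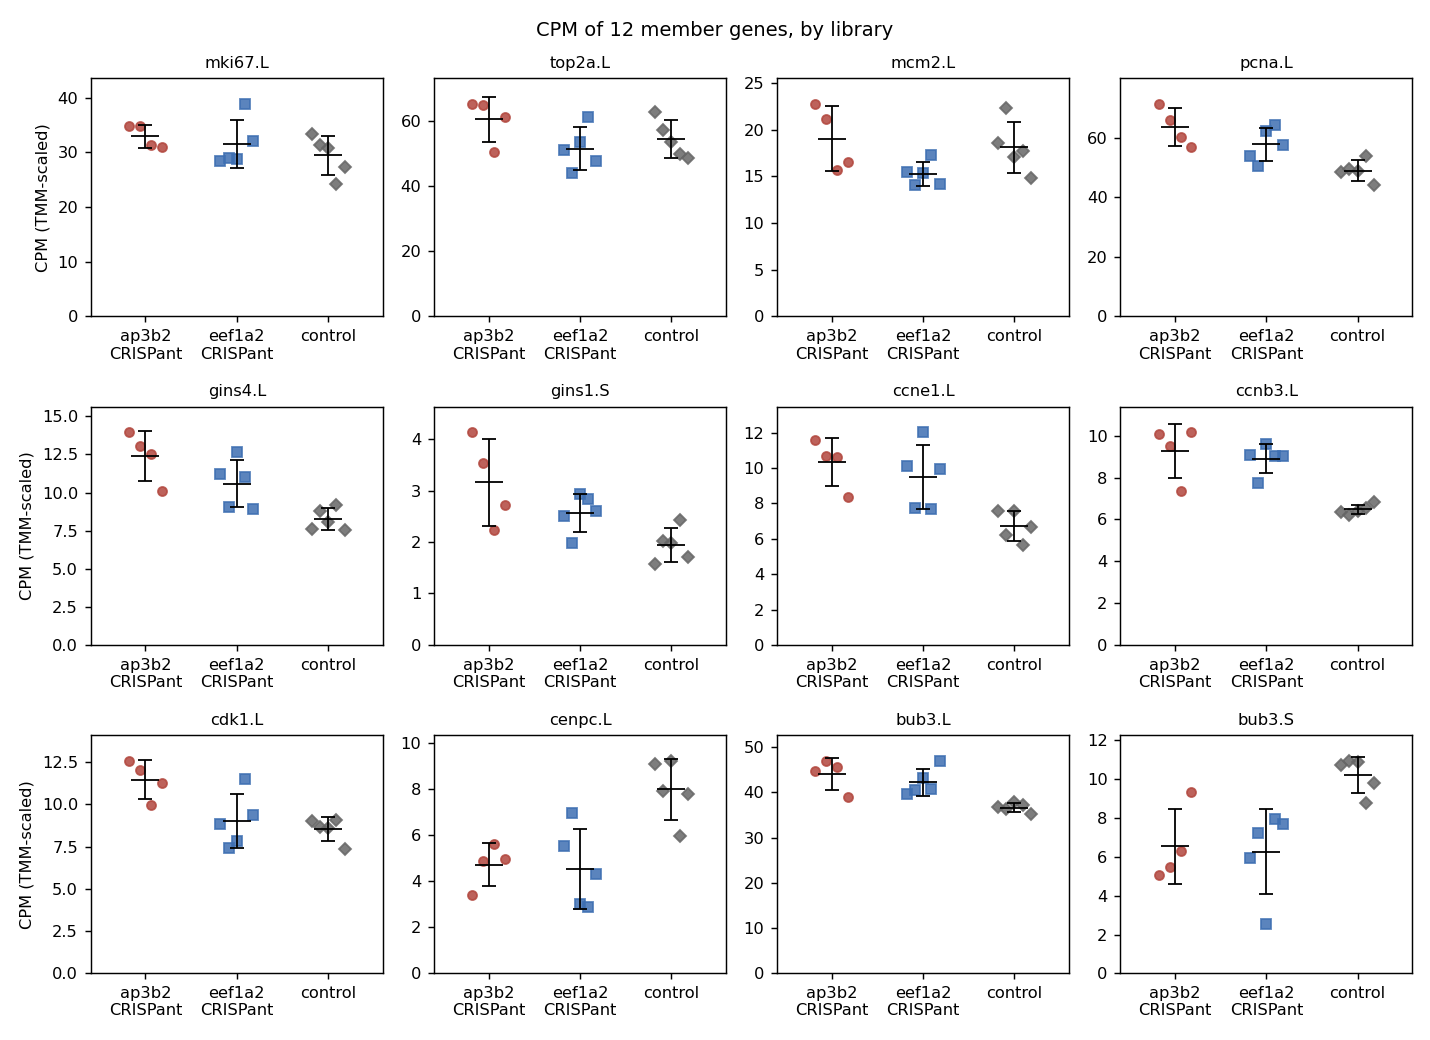
CPM of 12 members in each library (vertical axes, from 0), with *ap3b2* CRISPants, *eef1a2* CRISPants and controls from left to right, a bar at the group mean and error bars of 1 SD. *gins4.L*, *pcna.L*, *ccne1.L*, *ccnb3.L* and *cdk1.L* are above every control in all 4 *ap3b2* libraries, *cenpc.L* and *bub3.S* have lower means in both CRISPant groups than in controls, and *mki67.L*, *top2a.L* and *mcm2.L* overlap between the groups.

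Of the mitotic kinases and chromosome proteins (11 rows, all tested), 4 rose in *ap3b2* CRISPants (36.4%, where 20.0% of all rows did) and none in *eef1a2* CRISPants by edgeR (18.8% of all rows), where 1 was higher at an unadjusted p below 0.05 (24.5% of all rows). The medians were 0.16 in *ap3b2* CRISPants and 0.15 in *eef1a2* CRISPants. The common markers of proliferation in this role were not among them. *mki67.L*, which encodes the antigen Ki67 on mitotic chromosomes, had 34.8, 34.8, 31.3 and 30.9 CPM in *ap3b2* CRISPants, 28.5, 29.1, 28.9, 38.9 and 32.1 CPM in *eef1a2* CRISPants and 33.4, 31.4, 30.9, 24.2 and 27.4 CPM in controls, with overlap between all groups. The fitted log2 fold change was 0.16 (SE 0.10, adjusted p = 0.209) for *ap3b2* and 0.085 (SE 0.11, adjusted p = 0.569) for *eef1a2*, and that of *mki67.S* was -0.13 (SE 0.14, adjusted p = 0.462) and -0.074 (SE 0.13, adjusted p = 0.675).

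*top2a.L*, which encodes the topoisomerase that untangles sister chromatids, had 65.2, 64.9, 50.5 and 61 CPM in *ap3b2* CRISPants, 51.1, 44, 53.4, 61.3 and 47.5 CPM in *eef1a2* CRISPants and 62.8, 57, 53.6, 49.9 and 48.5 CPM in controls. The groups overlapped, with 3 of 4 *ap3b2* libraries near or above the highest control and replicate 3 near the low end of the controls. The log2 fold change was 0.15 (SE 0.10, adjusted p = 0.232) for *ap3b2* and -0.091 (SE 0.10, adjusted p = 0.477) for *eef1a2*.

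Aurora B, the kinase of the chromosomal passenger complex that corrects faulty attachments, gave the smallest adjusted p of this role in *ap3b2* CRISPants. *aurkb.S* had 8.21, 8.28, 6.37 and 6.91 CPM in *ap3b2* CRISPants, 6.32, 3.79, 7.47, 7.34 and 5.77 CPM in *eef1a2* CRISPants and 5.75, 4.5, 4.95, 3.92 and 5.87 CPM in controls, so that the *ap3b2* libraries lay above the controls and the *eef1a2* libraries spanned them. Against controls, the log2 fold change was 0.57 (SE 0.15, adjusted p = 0.0103) for *ap3b2* and 0.28 (SE 0.19, adjusted p = 0.243) for *eef1a2*. *aurkb.L* passed at 0.34 (SE 0.12, adjusted p = 0.0414) in *ap3b2* CRISPants and lost the call without control replicate 2, 3, 4 or 5 or *ap3b2* replicate 1 or 2 (adjusted p of 0.0664 to 0.142, within 0.0236 to 0.256 over 20 alternatives). In all, the call was lost in 11 of the 20, of which 6 were fits without a library.

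Polo-like kinase 1, which acts at centrosomes and kinetochores, rose in its .S copy. *plk1.S* had 8.51, 9.1, 7.35 and 9.25 CPM in *ap3b2* CRISPants, 7.17, 5.69, 7.18, 9.72 and 7.95 CPM in *eef1a2* CRISPants and 7.22, 5.97, 6.46, 7.1 and 6.71 CPM in controls, and the lowest *ap3b2* library was just above the highest control. Its log2 fold change was 0.35 (SE 0.11, adjusted p = 0.0226) for *ap3b2*, not called without control replicate 2 (adjusted p = 0.0580) or *ap3b2* replicate 2 (adjusted p = 0.0717; 0.00809 to 0.271 over 20 alternatives), and 0.16 (SE 0.14, adjusted p = 0.363) for *eef1a2*. In all, the *ap3b2* call on *plk1.S* was lost in 7 of the 20, of which 2 were fits without a library. *plk1.L* had 0.15 (SE 0.14, adjusted p = 0.379) for *ap3b2* and 0.15 (SE 0.15, adjusted p = 0.435) for *eef1a2*. *aurka.L*, a centrosomal kinase, was also higher in *ap3b2* CRISPants, at 0.52 (SE 0.18, adjusted p = 0.0361).

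The spindle checkpoint (4 rows, all tested) held genes that moved in opposite directions. *bub3.L* (chromosome 7L, positions 14758229 to 14775872) encodes the protein that brings Bub1 and BubR1 to kinetochores. It had 44.8, 46.9, 45.6 and 38.9 CPM in *ap3b2* CRISPants, 39.7, 40.4, 43.3, 40.7 and 47 CPM in *eef1a2* CRISPants and 36.7, 36.4, 37.9, 37.1 and 35.1 CPM in controls, and each CRISPant library was above each control. On the log2 scale the fold change was 0.26 (SE 0.07, adjusted p = 0.0105) for *ap3b2* and 0.19 (SE 0.06, adjusted p = 0.0263) for *eef1a2*.

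The copy *bub3.S* (chromosome 7S, positions 11259596 to 11277217) fell in both comparisons. It had 5.07, 5.48, 6.29 and 9.32 CPM in *ap3b2* CRISPants, 5.95, 7.22, 2.57, 7.92 and 7.68 CPM in *eef1a2* CRISPants and 10.7, 10.9, 10.9, 8.79 and 9.78 CPM in controls. All *eef1a2* libraries were below all controls, and so were the *ap3b2* libraries apart from replicate 4, which lay inside the control range. The log2 fold change was -0.65 (SE 0.17, adjusted p = 0.0110) for *ap3b2* and -0.71 (SE 0.24, adjusted p = 0.0359) for *eef1a2*. The *ap3b2* call on *bub3.S* was lost in 1 fit of all 14 libraries (adjusted p = 0.0602, within 4.62e-05 to 0.0602 over 20 alternatives). In *eef1a2* CRISPants *bub3.S* lost its call without control replicate 1, 2, 3 or 5 or *eef1a2* replicate 1 (adjusted p of 0.0562 to 0.0738, within 0.01004 to 0.390 over 22 alternatives), and *bub3.L* lost its call without control replicate 5 or *eef1a2* replicate 3 or 5 (0.0502 to 0.0618, within 0.0137 to 0.151). In all, these calls were lost in 7 (*bub3.S*) and 8 (*bub3.L*) of the 22, of which 5 and 3 were fits without a library.

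*bub1b.L*, the gene for BubR1, rose in *ap3b2* CRISPants, with 6.02, 5.99, 5.4 and 6.79 CPM there, 4.19, 3.76, 4.67, 6 and 4.8 CPM in *eef1a2* CRISPants and 5.16, 4.02, 4.72, 4.28 and 5.16 CPM in controls. The *ap3b2* libraries were all above the controls. Against controls, the log2 fold change was 0.37 (SE 0.12, adjusted p = 0.0320) for *ap3b2* and -0.0069 (SE 0.14, adjusted p = 0.973) for *eef1a2*. *bub1.L*, a checkpoint kinase, had 0.035 (SE 0.10, adjusted p = 0.791) for *ap3b2* and -0.12 (SE 0.11, adjusted p = 0.395) for *eef1a2*.

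Centromere and kinetochore genes (22 rows, 18 tested) were divided. In *ap3b2* CRISPants 3 were higher and 2 lower, and in *eef1a2* CRISPants 3 were higher and 2 lower, which is 16.7% and 11.1% of those tested, where 20.0% and 22.8% of all rows were higher and lower in *ap3b2* CRISPants and 18.8% and 21.4% in *eef1a2* CRISPants. *cenpc.L* (chromosome 1L, positions 90102713 to 90150486), which encodes a protein that binds the centromeric nucleosome and on which the kinetochore is assembled, was the largest fall among the members in both comparisons. It had 3.42, 4.87, 5.62 and 4.96 CPM in *ap3b2* CRISPants, 5.52, 6.98, 3.03, 2.89 and 4.29 CPM in *eef1a2* CRISPants and 9.1, 7.91, 9.23, 5.96 and 7.77 CPM in controls. All *ap3b2* libraries were below the lowest control, and *eef1a2* replicate 2 alone of its group was not. On the log2 scale the fold change was -0.77 (SE 0.17, adjusted p = 0.00555) for *ap3b2* and -0.83 (SE 0.23, adjusted p = 0.0179) for *eef1a2*.

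*cenpt.L*, another inner kinetochore gene, fell in *eef1a2* CRISPants, with 2.91, 3.3, 2.4 and 4.36 CPM in *ap3b2* CRISPants, 2.99, 2.69, 2.1, 3.29 and 3.46 CPM in *eef1a2* CRISPants and 4.36, 4.11, 3.74, 4.19 and 4.25 CPM in controls. Each *eef1a2* library was below each control. The log2 fold change was -0.52 (SE 0.14, adjusted p = 0.0161) for *eef1a2* and -0.35 (SE 0.17, adjusted p = 0.105) for *ap3b2*, where replicate 4 stood at the top of the control range. *cenpm.L* was lower in *ap3b2* CRISPants at -0.63 (SE 0.22, adjusted p = 0.0403) and had -0.49 (SE 0.21, adjusted p = 0.0819) in *eef1a2* CRISPants. The *ap3b2* call on *cenpm.L* was lost without control replicate 1, 2 or 3 or *ap3b2* replicate 1, 2 or 3 (adjusted p of 0.0556 to 0.118, within 0.00756 to 0.118 over 20 alternatives). In all, it was lost in 9 of the 20, of which 6 were fits without a library.

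*cenpa.L*, the centromeric form of histone H3, had 12, 10.7, 12.41 and 11 CPM in *ap3b2* CRISPants, 10.7, 9.24, 12.2, 11 and 9.69 CPM in *eef1a2* CRISPants and 9.62, 7.74, 8.96, 8.53 and 7.02 CPM in controls, where the *ap3b2* libraries were above the controls and all but 1 of the *eef1a2* libraries were. The fitted log2 fold change was 0.45 (SE 0.11, adjusted p = 0.00814) for *ap3b2* and 0.32 (SE 0.11, adjusted p = 0.0368) for *eef1a2*. *cenpw.L* had 0.34 (SE 0.11, adjusted p = 0.0232) for *ap3b2* and 0.30 (SE 0.10, adjusted p = 0.0291) for *eef1a2*. *cenpx.L* had 0.57 (SE 0.16, adjusted p = 0.0169) for *ap3b2*, lost without *ap3b2* replicate 1 (adjusted p = 0.0619) or replicate 2 (adjusted p = 0.0559; 0.00268 to 0.0832 over 20 alternatives), and 0.51 (SE 0.19, adjusted p = 0.0529) for *eef1a2*. In all, the *ap3b2* call on *cenpx.L* was lost in 4 of the 20. A further rise in *eef1a2* CRISPants was that of the inner kinetochore gene *cenpk.L*, at 0.23 (SE 0.09, adjusted p = 0.0482). *cenpv.L*, the member of this role with the highest mean CPM, had 97.1, 96.1, 93.7 and 99.2 CPM in *ap3b2* CRISPants, 90.7, 85.6, 89, 117 and 104 CPM in *eef1a2* CRISPants and 77.7, 83.2, 79.2, 106 and 86.7 CPM in controls, and did not pass in either comparison. *cenpv.S* varied widely between controls, at 3.9, 5.43, 4.14, 1.31 and 0.907 CPM, and had -0.15 (SE 0.43, adjusted p = 0.799) for *ap3b2*.

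**Figure D3:**
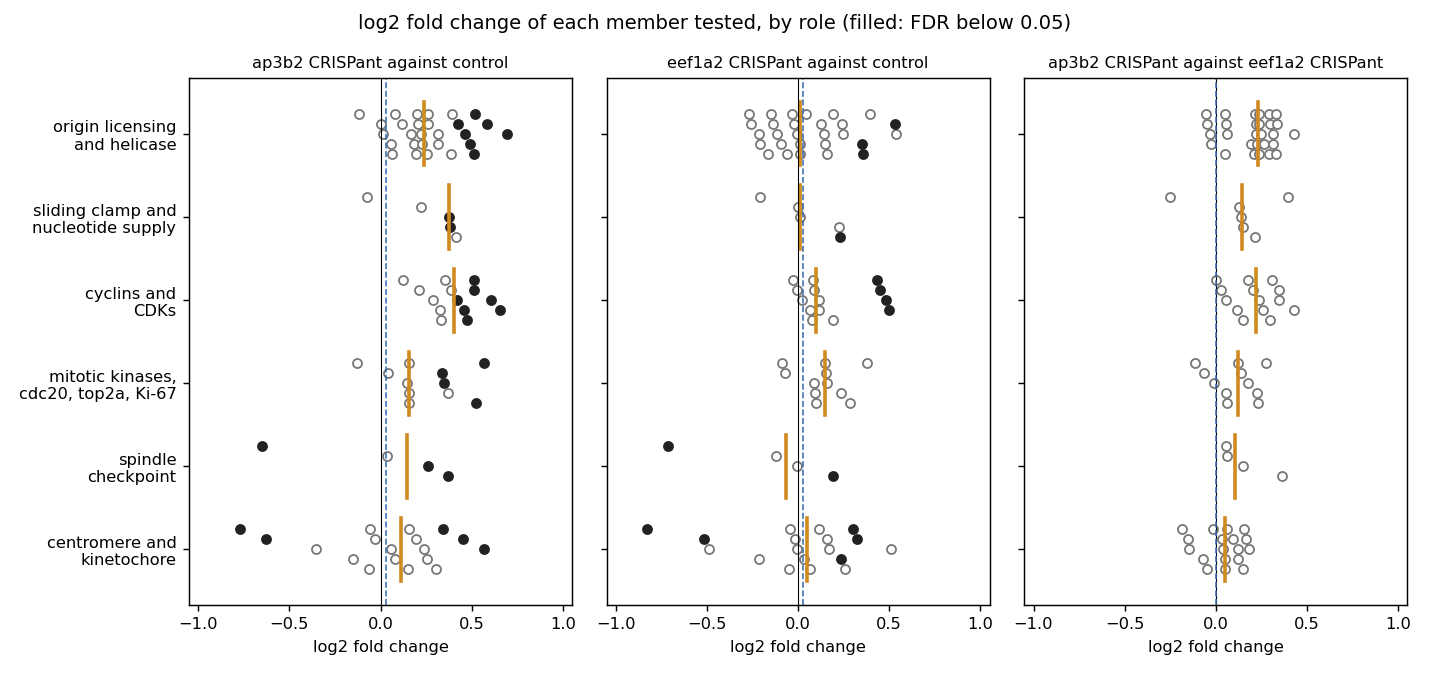
Log2 fold change (horizontal axes) of each member tested, a circle each, by role for *ap3b2* CRISPants against controls, *eef1a2* CRISPants against controls and *ap3b2* against *eef1a2* CRISPants, with filled circles at an adjusted p below 0.05, an orange bar at the median of the role and a dashed blue line at the median of all rows tested. In *ap3b2* CRISPants all 6 role medians lie between 0.11 and 0.40, in *eef1a2* CRISPants between -0.06 and 0.15, and no circle is filled in the third panel.

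The rises and falls of the CRISPant groups rest on the same 5 control libraries, so the values can only be set side by side. Of the 80 members tested in both, 11 were called higher in both comparisons, 14 were called higher in *ap3b2* CRISPants only, 1 in *eef1a2* CRISPants only, and 2 (*cenpc.L* and *bub3.S*) were called lower in both. A call in a single comparison gives a side of the threshold and not a difference between the CRISPant groups. *gins2.L*, called in *ap3b2* CRISPants only, had 0.49 (adjusted p = 0.0291) there and 0.53 (adjusted p = 0.0516) in *eef1a2* CRISPants. No row passed when the CRISPant groups were compared directly. No member was higher in one comparison and lower in the other. The same tally was not made over all rows, so whether this overlap was particular to the members was not tested. By library, 15 members were above every control in all *ap3b2* CRISPant libraries (18.8%, against 12% of all rows) and 1 was below (1.25%, against 14.4%). In *eef1a2* CRISPants 5 members were above every control (6.25%, against 9.09% of all rows) and 2 were below (2.50%, against 10%).

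Both copies were tested for 24 of the 30 pairs. How read pairs that match both copies equally well were counted is not given in the sources used here, so values of near-identical copies are less certain. In *ap3b2* CRISPants both copies passed for 7 pairs (*aurkb*, *ccnb2*, *ccnb3*, *ccne1*, *cdt1* and *pcna* upwards, and *bub3*, whose copies went opposite ways), 1 copy passed for 3 pairs and neither for 14, and the copies had log2 fold changes of the same sign in 19 of 24 pairs. In *eef1a2* CRISPants both passed for 2 pairs, *ccne1* and *bub3*, 1 copy for 4 and neither for 18, with the same sign in 17. These counts were not made over all pairs of copies in the table, so whether they were particular to the members was not tested. The widest gap between copies in either comparison was that of *bub3*, where the .L copy exceeded the .S copy by 0.91 on the log2 scale in each.

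When the CRISPant groups were compared directly, no member and no row of the table passed an adjusted p of 0.05, by edgeR (smallest adjusted p = 0.999993) or by DESeq2, so a difference in proliferation transcripts between the *ap3b2* and *eef1a2* CRISPants was not detectable with these libraries. The log2 fold changes of the 81 members tested were between -0.25 and 0.43 with a median of 0.15, beside 0.00 over all rows, and the median standard error was as large, at 0.15. Positive values were found for 67 of 81 members (82.7%, against 50.9% of all rows). At an unadjusted p below 0.05, 6 members were higher in *ap3b2* than in *eef1a2* CRISPants (7.41%, against 0.389% of all rows) and 1 was lower (1.23%, against 0.481%). Both shares of all rows were far below what a threshold of 0.05 gives when nothing differs, and why was not tested. Unadjusted p-values of this comparison thus cannot be taken at face value, nor can the ratio of these shares.

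Of those 6, 3 were subunits of the main helicase: *mcm7.L* at 0.24 (SE 0.09), *mcm2.L* at 0.32 (SE 0.13) and *mcm4.S* at 0.32 (SE 0.14). The others were *cdk1.L* at 0.34 (SE 0.14), *tyms.L* at 0.40 (SE 0.17) and *bub1b.L* at 0.37 (SE 0.15). None passed after adjustment. Each of the 6 overlapped between the groups. The lower member was the inner kinetochore gene *cenpu.L*, with 11.5, 11.7, 12.2 and 11.7 CPM in *ap3b2* CRISPants, 13.9, 12.7, 12.9, 13.3 and 14 CPM in *eef1a2* CRISPants and 12.46, 12.2, 12.2, 11.9 and 12.54 CPM in controls. Its log2 fold change was -0.18 (SE 0.08), and it was the only member tested that did not overlap between the CRISPant groups (1.23% of members tested were below in every library, against 0.272% of all rows). None was above in every library, where 0.272% of all rows were.

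A test over the 3 groups at once called 16 of 80 members (20.0%), where 37.9% of all rows were called. In the count of calls the members thus lay below the whole table. The count was 10, 8, 10 and 9 without control replicate 1, 2, 3 or 5, 27 without *eef1a2* replicate 4 and 25 without *ap3b2* replicate 4. The share of all rows called in these fits was not computed, so whether the whole table moved in the same way was not tested.

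The counts of rises against controls also moved with single libraries. In *ap3b2* CRISPants 25 members were higher with all libraries, 15 without *ap3b2* replicate 1 (background 11.6%) and 13 without replicate 2 (background 11.8%). As the median over 84 members of the log2 deviation from the mean of all libraries, these 2 replicates stood at 0.33 and 0.24 and replicates 3 and 4 at 0.01 and 0.01, beside -0.19 to 0.14 in *eef1a2* CRISPants and -0.18 to -0.03 in controls. In *eef1a2* CRISPants 12 were higher with all libraries, 7, 6 and 6 without control replicate 1, 3 or 5 (background 13.8%, 13.8% and 15.2%, against 18.8% with all libraries), 5 and 6 without *eef1a2* replicate 3 or 5 (background 12.6% for each), and 19 without *eef1a2* replicate 2 (background 22.6%). Without *eef1a2* replicate 4, 8 members were lower (background 22.5%). Without *eef1a2* replicate 2, 1 member was lower by over 2-fold. With the trend with gene span removed, 18 of 80 members were higher in *ap3b2* CRISPants (18.2% of all rows) and 9 of 80 in *eef1a2* CRISPants (18% of all rows).

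**Figure D4:**
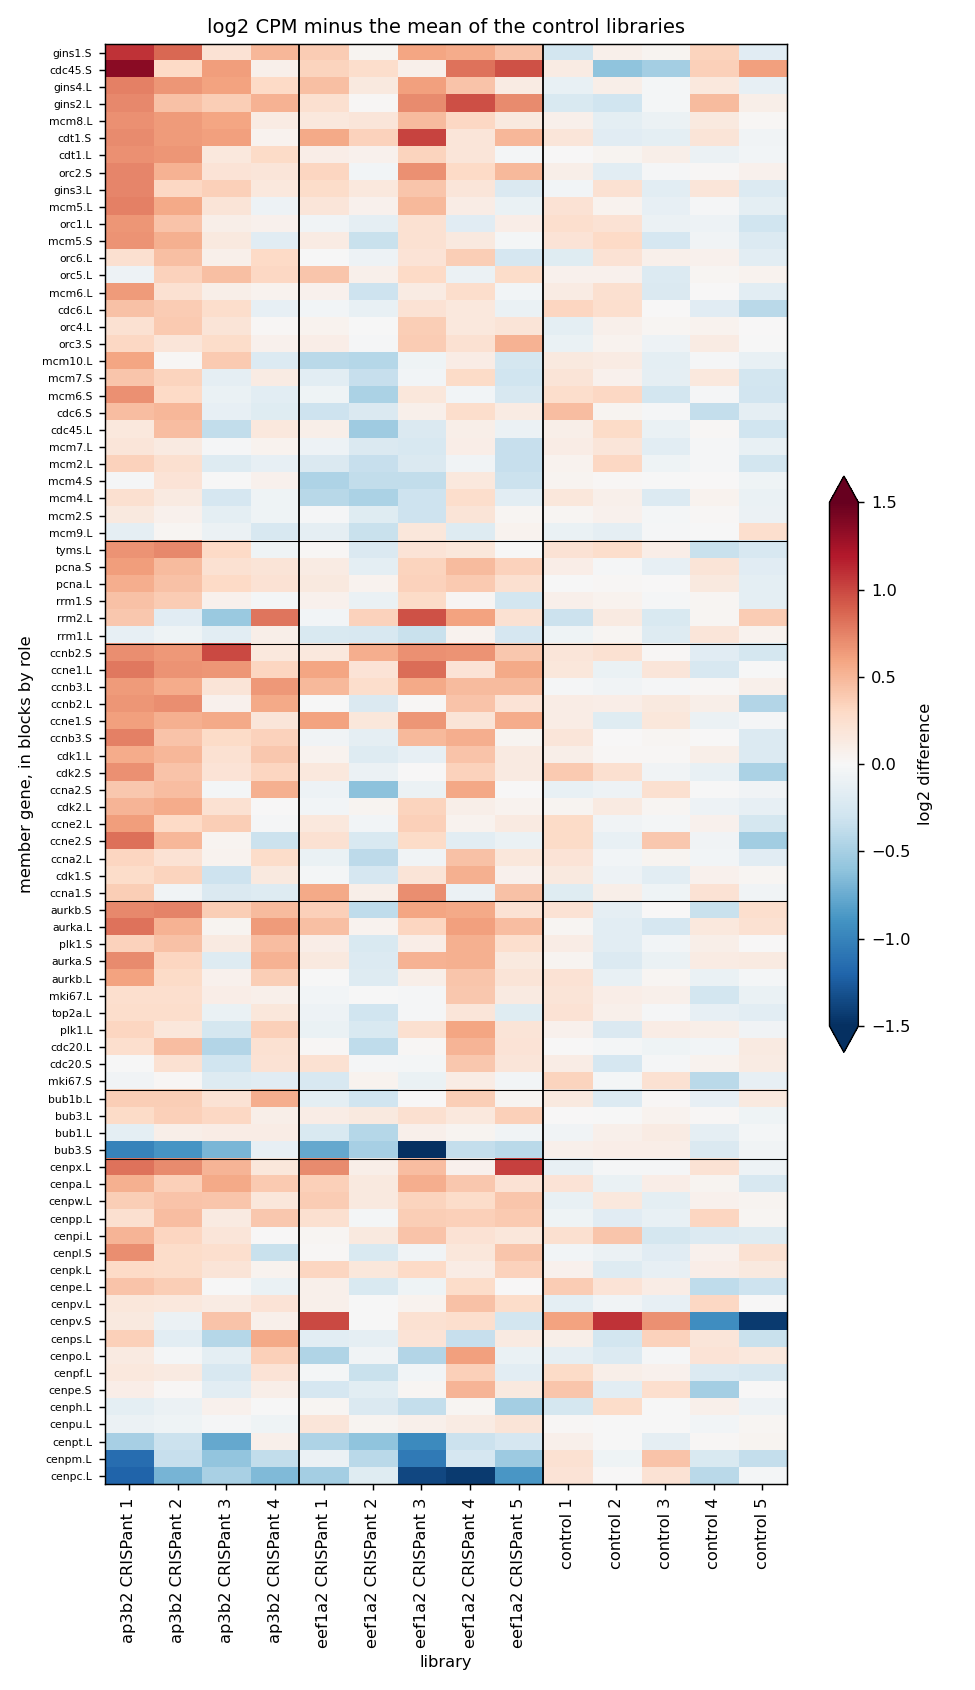
Log2 CPM minus the mean of the control libraries for the 84 members above 1 CPM in at least 4 libraries (rows, grouped by role), with a column for every library of *ap3b2* CRISPants, *eef1a2* CRISPants and controls from left to right. Most rows are above the control mean in *ap3b2* replicates 1 and 2, and *cenpc.L* and *bub3.S* are below it in most libraries of both CRISPant groups.

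Genes of the same processes that the rule did not take were called higher in shares of 24.5% and 26.3% in *ap3b2* CRISPants, little above the 20.0% of all rows. In *eef1a2* CRISPants their shares were near or below that of the whole table. They were called lower in smaller shares than all rows in both comparisons. These lists were counted in the main fit only, so how the shares move with the processing was not tested. Of 53 other replication genes tested (polymerases, clamp loaders, single-strand binding proteins and the kinases that fire origins), 13 were higher and 1 lower in *ap3b2* CRISPants (24.5% and 1.89%, where 20.0% and 22.8% of all rows were), with a median of 0.20, and 9 were higher and 5 lower in *eef1a2* CRISPants (17% and 9.43%, where 18.8% and 21.4% of all rows were), with a median of 0.04. Examples were *cdc7.L*, the kinase that fires origins, at 0.71 (SE 0.20, adjusted p = 0.0146) for *ap3b2* and 0.43 (SE 0.15, adjusted p = 0.0388) for *eef1a2*, and the clamp loader subunit *rfc5.L*, at 0.33 (SE 0.08, adjusted p = 0.00813) and 0.30 (SE 0.09, adjusted p = 0.0236). Of 76 other mitosis genes, 20 were higher and 1 lower in *ap3b2* CRISPants (26.3% and 1.32%, median 0.26) and 8 were higher and 3 lower in *eef1a2* CRISPants (10.5% and 3.95%, median 0.07).

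The mitosis list held cyclin-dependent kinase subunits of the Cks family. *cks2.L* had 5.02, 5.27, 4.14 and 3.15 CPM in *ap3b2* CRISPants, 4.56, 3.67, 4, 3.75 and 4.13 CPM in *eef1a2* CRISPants and 2.95, 2.44, 2.18, 2.72 and 1.83 CPM in controls, and *cks1b.S* had log2 fold changes of 0.73 (SE 0.12, adjusted p = 0.00292) for *ap3b2* and 0.55 (SE 0.13, adjusted p = 0.0107) for *eef1a2*. No library of either CRISPant group had as little *cks2.L* as the highest control, and its log2 fold change was 0.85 (SE 0.19, adjusted p = 0.00550) for *ap3b2* and 0.72 (SE 0.14, adjusted p = 0.00780) for *eef1a2*. The checkpoint kinase *ttk.L* fell in both, at -0.73 (SE 0.18, adjusted p = 0.00784) and -0.95 (SE 0.18, adjusted p = 0.00780).

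In the list of G1 regulators, inhibitors and cycle exit genes, which holds genes that promote the cycle and genes that halt it, 10 of 23 were lower and 2 higher in *ap3b2* CRISPants (43.5% lower, where 22.8% of all rows were, median -0.29), and 11 of 22 were lower and 1 higher in *eef1a2* CRISPants (50% lower, where 21.4% of all rows were, median -0.37). The summed level of the list overlapped between the groups, at 573.5 ± 19.99 CPM in *ap3b2* CRISPants (n = 4), 567 ± 14.7 CPM in *eef1a2* CRISPants and 568 ± 15.8 CPM in controls (n = 5 each, mean ± SD). *ccnd2.S*, a cyclin D that carries growth signals to the cycle, had 1.5, 2.5, 2.15 and 3.54 CPM in *ap3b2* CRISPants, 2.11, 2.95, 1.82, 1.98 and 2.1 CPM in *eef1a2* CRISPants and 6.46, 6.79, 5.88, 4.13 and 5.4 CPM in controls, all CRISPant libraries lying below all controls. The fitted log2 fold change was -1.24 (SE 0.23, adjusted p = 0.00326) for *ap3b2* and -1.40 (SE 0.17, adjusted p = 0.00780) for *eef1a2*, and its partner kinase *cdk6.L* had -1.14 (SE 0.16, adjusted p = 0.00292) and -1.32 (SE 0.27, adjusted p = 0.00794). Both genes promote the cycle and were named after their values were seen. Values over the list ran from -1.24 to 0.96 for *ap3b2* and from -1.40 to 0.29 for *eef1a2*. Of 26 rows of cell cycle transcription factors, 8 were higher and 5 lower in *ap3b2* CRISPants (30.8% and 19.2%) and 3 were higher and 5 lower in *eef1a2* CRISPants (11.5% and 19.2%). Among them *e2f4.S* had 0.55 (SE 0.13, adjusted p = 0.00627) for *ap3b2* and 0.42 (SE 0.13, adjusted p = 0.0276) for *eef1a2*, and *foxm1.S*, a driver of mitotic transcripts, had -0.64 (SE 0.21, adjusted p = 0.0321) and -0.83 (SE 0.16, adjusted p = 0.00780).

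Markers of neural progenitors and radial glia, the brain cells that divide, were called as follows: 13 of 28 were higher and 3 lower in *ap3b2* CRISPants (46.4% and 10.7%, where 20.0% and 22.8% of all rows were, median 0.23), and 15 of 28 were higher and 2 lower in *eef1a2* CRISPants (53.6% and 7.14%, where 18.8% and 21.4% of all rows were, median 0.23). The radial glial gene *fabp7.L* had log2 fold changes of 0.45 (SE 0.08, adjusted p = 0.00300) for *ap3b2* and 0.37 (SE 0.09, adjusted p = 0.0108) for *eef1a2*, whereas *nes.L*, which encodes the progenitor filament nestin, was at -0.74 (SE 0.16, adjusted p = 0.00497) for *ap3b2* and -0.75 (SE 0.21, adjusted p = 0.0189) for *eef1a2*. The summed level of the list was 3068 to 3231 CPM in *ap3b2* CRISPants, 2886 to 3232 CPM in *eef1a2* CRISPants and 2825 to 3238 CPM in controls. No marker of this list passed between the CRISPant groups by edgeR (0 of 27 at an unadjusted p below 0.05 either).

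Lists of markers of other cells were called in shares that differed from list to list. Over the whole table, 22.8% of rows were lower and 20.0% higher in *ap3b2* CRISPants, and 21.4% lower and 18.8% higher in *eef1a2* CRISPants. Endothelial and neuronal rows were lower in larger shares than these in both comparisons. No endothelial row was higher in either comparison, and 10% of neuronal rows were higher in each. Oligodendrocyte markers summed to 396 to 586 CPM in *ap3b2* CRISPants, 479 to 628 CPM in *eef1a2* CRISPants and 475 to 749.6 CPM in controls, with 4 of 14 lower in each comparison (28.6%) and none higher, and endothelial markers, of which 8 of 17 were lower in *ap3b2* CRISPants (47.1%) and 6 of 15 in *eef1a2* CRISPants (40%), summed to 112 to 172 CPM in *ap3b2* CRISPants, 117 to 173 CPM in *eef1a2* CRISPants and 145 to 182 CPM in controls. Neuronal markers were lower for 10 and higher for 3 of 30 in *ap3b2* CRISPants (33.3% lower), and lower for 9 and higher for 3 in *eef1a2* CRISPants (30% lower). Erythroid markers, of which 4 of 12 rows were tested and *hbg1.L* was near 0, summed to 519 to 712 CPM in *ap3b2* CRISPants, 373 to 794 CPM in *eef1a2* CRISPants and 397 to 517 CPM in controls. Of the 4 tested, only 1 had a positive log2 fold change in each comparison, and the median was -0.20 in both. That row was *hba3.L*, a globin, higher at 0.43 (SE 0.10, adjusted p = 0.00628) for *ap3b2* and 0.46 (SE 0.17, adjusted p = 0.0455) for *eef1a2*. Of 8 epidermal rows tested, 2 were higher in each comparison (25%) and *krt12.4.S* was near 0, none of 4 skeletal muscle rows passed, none of 9 microglial rows was higher, and 2 of 10 connective tissue rows were lower in each (20%). The part of these cells in the values of the replication and mitosis genes was not tested.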

How the data were processed

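The authors used STAR to align trimmed reads with the v10.1 genome and featureCounts to count pairs per gene by strand, and they deposited these counts for 26807 rows without normalization, together with log2 CPM values for 21328 rows. Recomputed log2 CPM (edgeR, TMM, prior count of 2) matched the deposited log2 values to within 4.99e-09. The deposited log2 CPM served for that check only, and every test used the deposited counts. Versions of the upstream tools are not given in the sources used here.

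Groups and replicate numbers came from the sample labels. Tests were run in edgeR 4.0.16 (R 4.3.3, limma 3.58.1). A row was dropped from a comparison when 4 of its libraries, or more, had a CPM no higher than 1, and after TMM scaling glmQLFit and glmQLFTest gave a quasi-likelihood F test of group, with no covariate. Benjamini-Hochberg adjustment ran over all rows tested (20800, 20682 and 20584 in the 3 comparisons, 20414 for the 3 groups at once). Standard errors were derived from the F statistic. Each main fit was tested on simulated counts, drawn for each library independently and with no shared effect of replicate number or gene span. How the fits behave where such effects are present was not tested. With 36.6 to 46.7 counts per CPM, a count of 0 was read as allowing up to 3 counts, which covers counting error only. Gene positions came from a RefSeq gene table of the same assembly, matched by symbol (21587 rows, 86 of the 92 members).

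Members were named if they were a copy of *mki67*, *top2a*, *pcna*, *mcm2*, *cdk1*, *ccna2*, *ccnb1*, *plk1*, *aurkb*, *bub1* or *rrm2*, if in a comparison they ranked in the top 5 for a rise or a fall (adjusted p below 0.05, 10 counts or more in each library of the group with the higher level), or if they had the highest mean CPM of their role. Other members, and genes outside the rule, were named after their values were seen. The members and the gene lists were chosen with earlier results of these data known.

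The alternatives were DESeq2 1.42.0, library size alone or upper-quartile scaling in place of TMM, 2 other filters, 1 fit of 14 libraries, a block for the replicate number, replicates 1 to 3 or 4 and 5 alone, a term for replicates 4 and 5, removal of each library's trend with gene span (lowess, span 0.3, where a loess curve had been planned) with and without the block, an FDR of 0.01, and each library left out in turn (28 fits of pairs of groups).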

Additional observations from a re-analysis of the deposited data

Results flagged for a closer look

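Among 117 groups of values (39 quantities in 3 groups), 5 held a library that stood apart from the rest of its group by Dixon's criterion at the 95% level, where chance gives about 1 in 20. In *ap3b2* CRISPants *bub1.L* was low in replicate 1, at 8.64 CPM against 10.2 to 10.4 CPM in the other replicates, and *cdt1.S* was low in replicate 4, at 17.5 CPM against 26.1 to 27.8 CPM. In controls *ccna2.S* was high in replicate 3, at 3.70 CPM against 2.91 to 3.12 CPM, and *cenpx.L* was high in replicate 4, at 2.09 CPM against 1.66 to 1.78 CPM. *cdk1.L* was low in control replicate 5, at 7.36 CPM against 8.62 to 9.06 CPM in the other controls.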

How the results depend on the processing

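Counts of members moved with the setting more than directions did. Library size scaling left 2573 rows higher and 5412 lower in *ap3b2* CRISPants (4153 and 4732 with TMM) and 2322 higher and 5080 lower in *eef1a2* CRISPants (3878 and 4425 with TMM), and gave 18 members higher in *ap3b2* CRISPants, but 4 higher and 5 lower in *eef1a2* CRISPants. An FDR of 0.01 left 7 members higher and 1 lower in *ap3b2* CRISPants, and 1 higher and 0 lower in *eef1a2* CRISPants (by edgeR; at an unadjusted p below 0.05, 7 were lower, and DESeq2 called 3 at an FDR of 0.05). The share of all rows at an FDR of 0.01 was not computed. The 3 lower members of *ap3b2* CRISPants became 6 in replicates 1 to 3, where the share of all rows that were lower went from 22.8% to 30.3%. In *eef1a2* CRISPants 1 was higher in replicates 1 to 3, while in replicates 4 and 5 2 were higher, 1 of them by over 2-fold, 1 was lower and the median was 0.22 (against -0.024 in replicates 1 to 3). Of all rows, 9.53% were higher in replicates 1 to 3, and 1.87% were higher and 11.3% lower in replicates 4 and 5. Leaving out single libraries gave 13 to 32 higher and 2 to 4 lower in *ap3b2* CRISPants, 5 to 19 higher, 2 to 8 lower and 0 to 1 lower by over 2-fold in *eef1a2* CRISPants, and 8 to 27 that differed over the 3 groups. The whole table moved in the same direction for rises. Where 13 and 32 members were higher in *ap3b2* CRISPants, 11.8% and 26.7% of all rows were. Where 5 and 19 were higher in *eef1a2* CRISPants, 12.6% and 22.6% of all rows were. The 8 lower members came where 22.5% of all rows were lower, against 21.4% with all libraries.

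The replicate numbers were not used as pairs in the main fits. Over rows, the correlations of deviations of same-numbered libraries were 0.10, 0.12, 0.31 and -0.060 for *ap3b2* against control, 0.28, 0.36, -0.22, 0.23 and 0.26 for *eef1a2* against control and 0.25, -0.061, 0.18 and 0.63 for *ap3b2* against *eef1a2*. Most were above 0.1, and each comparison held a value below 0. The labels do not say whether same-numbered libraries share parents, and these correlations cannot decide it. A replicate block left 12 members higher (11.7% of all rows) and 1 lower (16.8% of all rows) in *ap3b2* CRISPants, against 25 higher without it. In *eef1a2* CRISPants it left 13 higher (18.2% of all rows) and 4 lower (21.7% of all rows). The block with the span trend removed left 5 of 80 higher and 2 lower in *ap3b2* CRISPants, a smaller share than the 11.8% of all rows that were higher, and 8 of 80 higher and 5 lower in *eef1a2* CRISPants (17.3% of all rows higher). The block made no call in the direct comparison. The summed CPM of the spindle checkpoint members in controls was 63.29 with library size scaling and 61.15 with TMM.

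Some log2 fold changes changed sign. For *ap3b2* CRISPants against controls, *mcm2.S* was -0.012 with DESeq2, -0.075 with library size, -0.025 with the block, -0.021 in replicates 1 to 3, -0.011 with the term for replicates 4 and 5, and with the span trend removed -0.056 alone and -0.082 with the block. *mcm2.L* was -0.012 with library size and -0.0095 with the block, and *bub1.L* was -0.038 with library size and -0.057 in replicates 1 to 3. Without the span trend, *cdk1.S* was -0.0051 (-0.013 with the block), *plk1.L* -0.018 (-0.042), *mcm7.L* -0.042 (-0.065) and *ccna2.L* -0.017 with the block.

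For *eef1a2* CRISPants against controls, *ccna2.L* was -0.042 with library size, -0.27 in replicates 1 to 3, and -0.14 without the span trend (-0.16 with the block). *ccna2.S* was 0.0067 with upper-quartile scaling, 0.0039 with every row, 0.0061 in the fit of 14 libraries and 0.35 in replicates 4 and 5. In replicates 1 to 3 *aurkb.L* was -0.10, *cdk1.L* -0.14, *cdk1.S* -0.016, *mki67.L* -0.16 and *plk1.L* -0.032, and in replicates 4 and 5 *bub1.L* was 0.069, *mcm2.S* 0.16, *mki67.S* 0.30 and *top2a.L* 0.15. Without the span trend *aurkb.L* was -0.021 (-0.027 with the block), *cdk1.L* -0.051 (-0.063) and *mki67.S* 0.0013 (0.016), and with the block *cdk1.S* was -0.011 and *plk1.L* -0.018.

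For *ap3b2* against *eef1a2* CRISPants, *cdk1.S* was -0.0048 with the block and -0.013 without the span trend (-0.026 with the block). *plk1.L* was 0.014 with the block, 0.11 in replicates 1 to 3 and 0.057 with the term for replicates 4 and 5, *cenpv.L* was 0.023, 0.11 and 0.029 in the same settings and 0.0016 with the block and no span trend, and *mki67.S* was 0.012 in replicates 1 to 3.

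With single libraries left out, values on both sides of 0 were found for *ap3b2* against control in *mcm2.L* (-0.031 to 0.16) and *mcm2.S* (-0.048 to 0.048), and for *eef1a2* against control in *ccna2.L* (-0.10 to 0.12), *ccna2.S* (-0.20 to 0.13), *cdk1.L* (-0.044 to 0.14), *cdk1.S* (-0.017 to 0.20), *mcm2.S* (-0.13 to 0.0061), *mki67.L* (-0.0068 to 0.14) and *mki67.S* (-0.17 to 0.024). In the direct comparison they were found in *cdk1.S* (-0.082 to 0.13), *mcm2.S* (-0.0058 to 0.12), *plk1.L* (-0.096 to 0.12) and *cenpv.L* (-0.059 to 0.061). The cause of these changes was not tested. Over the named members, 461 of 540 values for *ap3b2*, 499 of 594 for *eef1a2* and 376 of 400 for the direct comparison kept direction and side of the threshold. In *ap3b2* CRISPants the calls on *gins4.L*, *ccne1.L*, *aurkb.S* and *cenpc.L* were lost in 0 of 20 alternatives, those on *cdk1.L* and *bub3.L* in 1 and that on *bub3.S* in 2 (in the fit of 14 libraries, and with the block at an adjusted p of 0.0523, within 4.62e-05 to 0.0602). In *eef1a2* CRISPants the calls on *ccnb3.L*, *cenpc.L* and *cenpt.L* were lost in 1 of 22, those on *ccne1.S* and *cdt1.S* in 2 and that on *ccne1.L* in 3. Other calls were less firm. For *ap3b2*, that on *aurkb.L* was lost in 11 of 20, *cenpm.L* in 9, *ccnb2.S* and *plk1.S* in 7 each, and *gins1.S* and *cenpx.L* in 4 each. For *eef1a2*, those on *pcna.L* and *ccnb2.S* were lost in 12 of 22 each, *bub3.L* in 8 and *bub3.S* in 7. Depth limits the members below 1 CPM, which were not tested, and those at 1 to 3 CPM rest on fewer reads per library than the rest.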
